A study of Mus musculus with 14 samples.

Results

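The milk fat globule membrane genes examined here were 9 genes chosen by name, *Btn1a1*, *Xdh*, *Plin2*, *Cidea*, *Mfge8*, *Muc1*, *Muc15*, *Cd36* and *Fabp3*, out of 20515 genes with a usable symbol. All 9 passed a filter that kept means of 1 exon FPKM or more. FPKM counts the fragments on exons or on introns per kilobase, scaled by a total for each library. The study joined regulatory elements of the milk protein gene *Wap* to its neighbor *Tbrg4* by deletions made in mouse zygotes, to ask which promoters the *Wap* super-enhancer can drive. The RNA-seq samples were total RNA of the mammary gland of 2 mice on day 10 of lactation, replicate 1 and replicate 2 of the single genotype WT_wTbrg4. These mice carried 1 wild-type allele and 1 Wap-Tbrg4 allele, in which the deletion placed *Tbrg4* under the *Wap* super-enhancer and promoter. The deletion is a germline allele, not limited to mammary cells, and it removes the usual *Tbrg4* promoter. The names of the deposited files spell the mutant allele eTbrg4 rather than wTbrg4, and the labels were followed. Neither age nor litter was given. Nothing in the labels beyond the replicate number tells the 2 glands apart, although the study's methods speak of mice. Wild-type mice and the ChIP-seq samples were not analysed here, so no value below is an effect of the genotype, and no test was made.

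In the lactating gland, triglyceride droplets form at the endoplasmic reticulum of alveolar cells, move to the apical surface and are released wrapped in plasma membrane. The wrapping carries a characteristic set of proteins. Some bridge droplet and membrane, some cover the outer surface as mucins or as a phosphatidylserine-binding coat, and others serve fatty acid uptake and transport before the droplet is built.

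No read totals accompanied the values, which have 1 decimal, but the totals left a trace in them. For features of at most 500 bp, the product of FPKM and RefSeq length bunched at whole multiples of 100 in replicate 1 and of 198 in replicate 2. Of 77 and 53 such products under 650, 66 and 44 lay within 0.2 steps of a whole multiple, a share that the search for the step on the same products raises. Exons and introns taken alone gave steps of 100 and 100 in replicate 1 and of 195 and 199 in replicate 2, so both measures of a mouse shared a scale. Read as the value of 1 counted read, the steps correspond to about 12000000 and 11200000 exon reads and 2620000 and 1290000 intron reads, to 3 digits. The same steps are those of FPKM scaled to totals of 10000000 and 5050000 reads, below the exon reads of either mouse, which bears on every comparison of levels between the mice.

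The tissue was checked against marker genes. All 4 markers of secretory alveolar epithelium were at 1 FPKM or more in both mice, summing to an exon FPKM of 290129 in replicate 1 and 725181 in replicate 2, with the casein gene *Csn2*, at 108555 and 481937, highest by the mean and *Wap*, at 172935 and 234774, higher than it in replicate 1. *Lalba*, needed for lactose synthesis, was at 8453.5 and 8265.4, and the alveolar transcription factor *Elf5* at 185.8 and 204.8. All 3 luminal markers were present, with sums of 310.4 and 184.2 and *Epcam*, at 134.0 and 112.0, as the gene with the highest mean. The luminal keratin genes *Krt8*, at 31.4 and 14.6, and *Krt18*, at 145.0 and 57.6, were more than 2-fold higher in replicate 1 on the deposited scale, and the part of cell makeup in the differences between the mice given below was not tested. The gland was thus marked as secretory in both mice, while *Csn2* differed between them far more than *Lalba* or *Elf5*.

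All 9 genes ranked among the 53 highest by mean exon FPKM. Their exon FPKM summed to 11384.5 in replicate 1 and 11116.3 in replicate 2, on average 11250 ± 190 (SD, n = 2). As a share of all exon FPKM this was 1.33% in replicate 1 and 0.622% in replicate 2. The sums of the members were alike but the denominators were not, 852961 against 1788119, and the 10 highest genes held 79.5% and 90.6% of them. Without those 10 genes, the membrane genes held 6.51% and 6.59% of the remainder, nearly the same in both mice. Because these were whole glands, the number of secretory cells and the RNA per cell cannot be told apart in any of these levels.

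**Figure D1:**
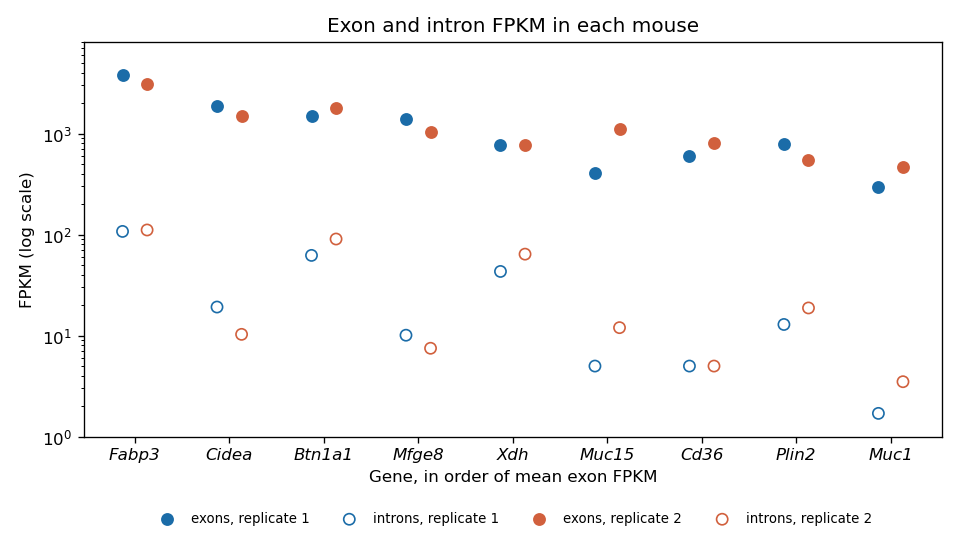
Exon FPKM (filled points) and intron FPKM (open points) of the 9 genes in each of the 2 mice, on a log scale, in order of mean exon FPKM from *Fabp3* to *Muc1*. Exon values span 296.3 to 3771.2 FPKM, and intron values span 1.7 to 111.2 FPKM.

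*Btn1a1*, *Xdh* and *Plin2* encode the proteins held to bridge droplet and apical membrane. *Btn1a1* encodes butyrophilin, a transmembrane protein of the apical surface, with 1477.7 exon FPKM in replicate 1 and 1790.4 in replicate 2 (mean 1634 ± 221, SD, n = 2). *Xdh* encodes xanthine oxidoreductase, which binds butyrophilin in the membrane, and was at 775.4 and 770.6 (773 ± 3.39). *Plin2* encodes the perilipin that coats the cytoplasmic droplet, and was at 788.1 and 551.5 (670 ± 167). On the deposited scale, *Xdh* had the smallest spread of the 9 genes, with a coefficient of variation of 0.439%, compared with 13.5% for *Btn1a1* and 25.0% for *Plin2*.

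The transcripts of the bridging proteins were not at equal levels. *Btn1a1* exceeded *Xdh* 1.91-fold in replicate 1 and 2.32-fold in replicate 2, and *Plin2* stood at 1.02 and 0.716 times *Xdh*. Measured on introns, which stand for unspliced transcripts, the ratios differed from those of the exons but were nearly the same in both mice. *Btn1a1* introns were at 1.44 and 1.41 times those of *Xdh*. *Plin2* introns were at 0.299 and 0.293 times those of *Xdh*, and at the exon level *Plin2* was thus far nearer to *Xdh* than at the intron level. *Btn1a1* introns exceeded *Plin2* introns 4.83-fold and 4.81-fold, while the exon ratio was 1.88 in replicate 1 and 3.25 in replicate 2. The 3 genes therefore kept their proportions in introns and departed from them in exons. Ratios between genes within a mouse do not depend on the total to which that mouse was scaled.

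RefSeq promoter windows on GRCm38, the build called mm10, from 250 bases before to 50 bases after the start site, were given for 5 of the 9 genes, *Muc1*, *Plin2*, *Fabp3*, *Cd36* and *Mfge8*. They were searched on both strands for the letters TTCNNNGAA (STAT5) and TGACGTCA (CREB). The TATA box was searched as TATAAA. The letters AGGTCA, a core of nuclear receptor sites such as those of the PPARs, were added, and the E-box was searched as CACGTG. The motifs share no overlap in the matches found. TTCNNNGAA and TGACGTCA matched in 0 of the 5 windows, compared with 8.30% and 1.79% of 32851 windows, and *Fabp3* and *Mfge8* held none of the 5 motifs. *Plin2* held matches to AGGTCA and to CACGTG, present in 16.3% and 7.15% of all windows. The first lies on the strand opposite to the gene, so that the gene's own strand, as printed, reads TGACCT, and begins 218 bases before the start site (chr4:86670252-86670297, minus strand). The second begins 4 bases before it (chr4:86670048-86670083, minus strand). They are shown, with the match in capitals, as the matches found for *Plin2*, and their part in its level was not tested.
*Plin2* AGGTCA match: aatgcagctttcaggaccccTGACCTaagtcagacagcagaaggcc
*Plin2* CACGTG match: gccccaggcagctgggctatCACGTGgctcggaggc

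*Cidea* encodes a protein of the droplet surface that promotes droplet fusion and growth. It reached 1865.1 exon FPKM in replicate 1 and 1483.9 in replicate 2 (mean 1675 ± 270, SD, n = 2), rank 14 of all genes. *Cidea* is also known as a gene of brown fat, so brown adipocyte markers were read beside it. Of 3 such markers, *Ucp1* and *Elovl3* were listed at 0 in both mice, and *Cox7a1*, the most abundant, was at 5.4 and 3.7, which were also the sums of the list. *Cidea* exceeded *Plin2* 2.37-fold and 2.69-fold in exons. In introns the ratio was 1.49 in replicate 1 and 0.548 in replicate 2, so the order turned in replicate 2.

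*Mfge8* encodes lactadherin, a secreted protein that binds phosphatidylserine and integrins and coats the globule. It was at 1406.9 in replicate 1 and 1039.9 in replicate 2 (1223 ± 260), rank 17. Its relative *Edil3*, which shares the phosphatidylserine-binding domains, was at 0.0 and 0.1.

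*Muc1* and *Muc15* encode the membrane-bound mucins of the globule surface. *Muc1* was the lowest of the 9 genes, at 296.3 in replicate 1 and 472.1 in replicate 2 (384 ± 124), rank 53. *Muc15* was at 406.2 and 1116.1 (761 ± 502), the widest spread of the group on the deposited scale, with a coefficient of variation of 65.9%. Both mucin genes were higher in replicate 2 on the deposited scale. The *Muc1* to *Muc15* ratio was 0.729 and 0.423, so *Muc15* was the more abundant mucin transcript in either mouse. *Muc1* was the only gene of the 5 with a TATAAA match, a motif present in 13.6% of all windows. It begins 31 bases before the start site (chr3:89229005-89229050, plus strand) and is shown in capitals, as the one core promoter motif found among these genes.
*Muc1* TATAAA match: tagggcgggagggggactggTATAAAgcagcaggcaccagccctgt

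*Cd36* and *Fabp3* serve fatty acids rather than the finished droplet. *Cd36* encodes a scavenger receptor that takes up long-chain fatty acids, and was at 597.6 in replicate 1 and 813.7 in replicate 2 (706 ± 153). *Fabp3* encodes the cytosolic fatty acid carrier first known from heart, and was at 3771.2 and 3078.1 (3425 ± 490), rank 12 and the highest of the group. *Fabp3* alone held 33.1% and 27.7% of the exon FPKM summed over the 9 genes. The *Cd36* window belongs to an internal transcript start, 53063 bases inside the outermost start of its 5 transcripts, and which start was used in the gland was not tested. It held an AGGTCA match on the opposite strand, 228 bases before that internal start (chr5:17836099-17836144, minus strand), shown in capitals beside that of *Plin2* above because they are the 2 matches to this motif.
*Cd36* AGGTCA match: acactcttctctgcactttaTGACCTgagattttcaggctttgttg

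Several of these genes are also expressed in other cells of the gland, and the markers of those cells were present. White adipocyte markers, known to accompany *Cd36* expression, were found at 1 FPKM or more for 6 of 6 genes, with sums of 847.5 in replicate 1 and 616.4 in replicate 2, led by *Cfd* at 692.0 and 436.5. Of these, *Plin1* and *Cidec* are also relatives of members. *Adipoq*, particular to adipocytes, was at 85.3 and 113.0. Endothelial markers were found for 5 of 5 genes, with sums of 94.0 and 90.9, led by *Gpihbp1* at 43.5 and 47.2. Macrophage markers were found for 5 of 5, with sums of 83.7 and 42.0, led by *C1qa* at 44.8 and 19.6. These sums were low beside the level of *Cd36* itself, except for the adipocyte sum, and the part of any of these cells in the level of *Cd36* was not tested.

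Striated muscle is the tissue best known for *Fabp3*, and its markers were read beside this gene. Of 4 striated muscle markers, 2 were at 1 FPKM or more in both mice and *Myh6* was listed at 0. Their sums were 14.8 in replicate 1 and 6.9 in replicate 2, led by *Acta1* at 8.4 and 3.7. The part of muscle in the level of *Fabp3* was not tested. Myoepithelial markers, from the contractile cells around the alveoli, were found for 4 of 5 genes, with sums of 112.6 and 71.3, led by *Myh11* at 69.2 and 38.8. *Acta2* was listed at 0 in both mice.

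By mean exon FPKM the genes came in the order *Fabp3*, *Cidea*, *Btn1a1*, *Mfge8*, *Xdh*, *Muc15*, *Cd36*, *Plin2* and *Muc1*. *Fabp3* stood apart, 2.02-fold and 2.07-fold above *Cidea*, with no overlap of the values of the 2 mice on the deposited scale. Overlap between mice depends on that scale, whereas the order of genes within a mouse does not. *Cidea* and *Btn1a1* overlapped and changed places between the mice. *Btn1a1* exceeded *Mfge8*, *Mfge8* exceeded *Xdh*, and *Plin2* exceeded *Muc1* in both mice, without overlap on the deposited scale. *Xdh*, *Muc15*, *Cd36* and *Plin2* were not separated, since the values of each pair of neighbors overlapped and their order differed between the mice. *Muc15* was not separated from *Mfge8* either, since its 1116.1 in replicate 2 exceeded the 1039.9 of *Mfge8* there. *Muc15* exceeded *Muc1* in both mice, although on the deposited scale its 406.2 in replicate 1 lay between the values of *Muc1* in the 2 mice. Between *Fabp3* and *Cidea* lay *Wfdc3*, of the whey acidic protein family (mean 2248), and above *Fabp3* was *Lao1* (5471). *Mfge8* lay between the lipase gene *Cel* (1341) and *Thrsp* (1212), and *Xdh* between *Clu* (785) and the translation factor gene *Eef1a1* (765). *Plin2* was followed by the fatty acid synthase gene *Fasn* (668), and *Muc1* lay between *Dbi* (391) and *Fads1* (382).

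The members were far above the relatives listed for each family. *Btn1a1* made up 99.3% of the exon FPKM of 3 butyrophilin family genes in replicate 1 and 99.6% in replicate 2, with *Btnl9* at 10.7 and 7.5 and *Btn2a2* at 0.1 and 0.2. *Plin2* made up 94.2% and 95.3% of 5 perilipin genes, followed by *Plin3*, the widely expressed perilipin, at 27.7 and 15.4. The adipocyte perilipin *Plin1* was at 7.8 and 2.6 and *Plin4* at 13.2 and 9.0, whereas *Plin5*, known from oxidative tissues, was at 0.1 in both. *Cidea* made up 98.2% and 97.6% of the CIDE genes, with the fat cell gene *Cidec* at 33.7 and 35.6 and the liver gene *Cideb* at 0.2 and 0.3.

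The mucin and fatty acid genes followed the same pattern with some exceptions. *Muc1* and *Muc15* together made up 99.2% of the exon FPKM of 5 measured mucin genes in either mouse. *Muc20* was the only other one of these 5 above 1 FPKM, at 5.8 in replicate 1 and 12.2 in replicate 2. *Muc4* was at 0.0 and 0.1, *Muc13* was listed at 0, and *Muc16* was not among the genes measured. *Cd36* made up 92.2% and 93.3% of the class B scavenger receptor genes, with the HDL receptor gene *Scarb1* at 36.2 and 40.7 and the lysosomal *Scarb2* at 14.4 and 17.3. *Fabp3* made up 87.4% and 83.3% of 6 fatty acid binding protein genes, the lowest share of the families, because *Fabp4*, the adipocyte form, was at 501.7 and 564.0. *Fabp5* was at 26.7 and 24.1 and the liver form *Fabp1* at 14.3 and 27.1. *Fabp7* was at 0.1 and 0.0, and *Fabp2* was listed at 0 in both mice.

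**Figure D2:**
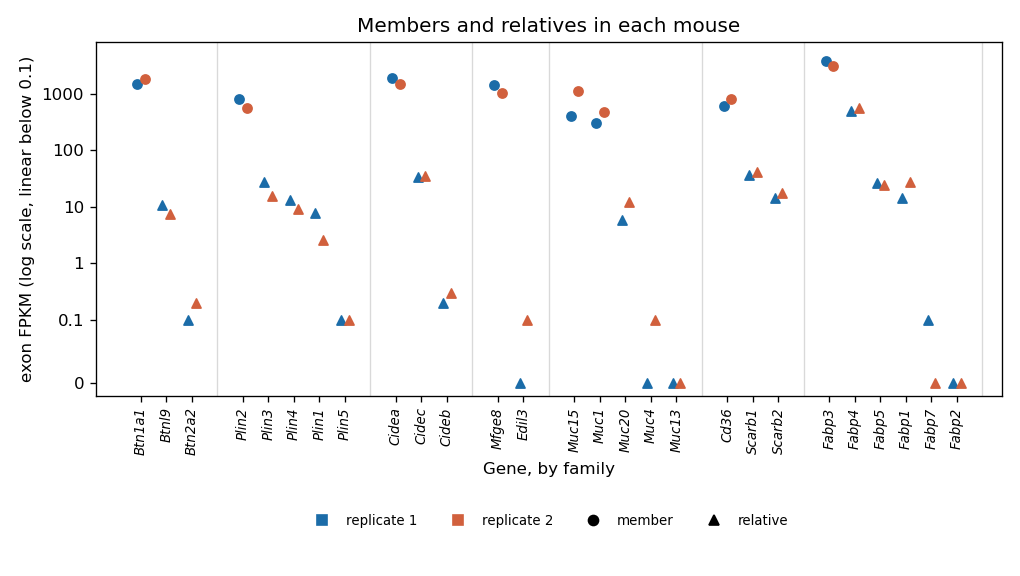
Exon FPKM of the members (circles) and their relatives (triangles) in replicate 1 (blue) and replicate 2 (orange), by family, on a log scale that is linear below 0.1 FPKM. Every member lies above all relatives plotted for its family, and *Fabp4* at 501.7 and 564.0 FPKM is the highest relative.

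Other proteins known from the globule membrane spanned a wider range. All 15 such genes on a list were at 1 FPKM or more in both mice, with sums of 3037.8 in replicate 1 and 3410.0 in replicate 2 and a median of the mean exon FPKM of 56.5. The phosphate transporter gene *Slc34a2* led at 1008.5 and 1186.8, and the folate receptor gene *Folr1* followed at 769.7 and 850.9, both within the range of the 9 members. *Pigr*, which carries immunoglobulin A into milk, was at 503.8 and 388.8. *Rab18*, a small GTPase of lipid droplets, was at 216.8 and 361.4, and the riboflavin and drug transporter gene *Abcg2* was at 221.6 and 355.0. *Cd59a*, at 3.2 and 7.5, was the only gene of the 15 more than 2-fold apart between the mice, compared with 5.95% of all genes averaging 1 exon FPKM or more.

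The remaining genes of the list were lower than these, though above *Cd59a* by the mean. *Apoe* was at 97.4 in replicate 1 and 69.8 in replicate 2, *Tlr2* at 55.9 and 58.0, and *Ggt1*, which cleaves glutathione, at 71.8 and 41.1. *Cd9*, *Cd14*, *Ceacam1* and *Ezr* had means between 10.9 and 31.1. *Stom* and *Anxa2*, which encode proteins found at many plasma membranes, had means of 6.80 and 5.90.

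The 2 mice were compared as the difference of log2(FPKM + 1) between replicate 2 and replicate 1, a scale that understates the change of low genes. On the deposited scale, *Muc15* was the only one of the 9 genes more than 2-fold apart, with 406.2 against 1116.1 FPKM, a 2.75-fold higher value in replicate 2 and a log2 difference of 1.46. Of 9845 genes averaging 1 exon FPKM or more, 586 were more than 2-fold apart (5.95%). Counted by direction, 107 (1.09%) were higher in replicate 2, with 1 member among them, and 479 (4.87%) were higher in replicate 1, with 0 members among them. A count of 1 in 9 is too small to set the group apart from that background. The median log2 difference was -0.01 over the members and -0.08 over all 9845 genes, and the median absolute difference was 0.44 and 0.33. Among the 210 genes with a mean of at least 100 FPKM, where all members lie, the median absolute difference was 0.43 and 12.9% were more than 2-fold apart.

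Of the other members, *Muc1* (0.67), *Cd36* (0.44) and *Btn1a1* (0.28) had higher deposited values in replicate 2. *Plin2* (-0.51), *Mfge8* (-0.44), *Cidea* (-0.33), *Fabp3* (-0.29) and *Xdh* (-0.01) had lower ones. These directions depended on the scale. The exon FPKM summed over all genes was mostly that of the 10 highest genes, 79.5% in replicate 1 and 90.6% in replicate 2. Without those genes the sums were 174946 and 168597. With each mouse rescaled to the same summed exon FPKM, the median over all genes moved to -0.90 and *Muc15* alone stayed higher in replicate 2, at 0.39, while *Btn1a1*, *Cd36* and *Muc1* turned to -0.79, -0.62 and -0.39. Relative to that median, 4 members lay above it, compared with 5 on the deposited scale.

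The difference between the mice followed the base composition of the exons. Across 9725 genes the log2 difference and exon GC content had a Spearman correlation of -0.66, a description of these 2 libraries, in which genes are not independent replicates. *Muc15* and *Cd36*, with exon GC contents of 38.1% and 39.2%, were the members poorest in GC, and *Mfge8*, at 57.6%, was the richest. Genes of a mean of at least 10 FPKM within 1 percentage point of the GC content of *Muc15* had a median log2 difference of 0.54 (58 genes), and those near *Cd36* had 0.46 (102 genes), almost the value of *Cd36* itself. Genes near *Mfge8* had -0.64 (235 genes) and those near *Cidea* -0.35 (340 genes). *Cd36* and *Cidea* thus lay close to genes of their own GC content. Further from theirs lay *Muc1*, at 0.67 against a median of -0.29, and *Muc15*, at 1.46 against 0.54. *Plin2*, at -0.51 against -0.18, and *Btn1a1*, at 0.28 against 0.00, also lay further from theirs. For *Xdh*, at -0.01, and *Fabp3*, at -0.29, the medians were -0.16 and -0.16.

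After a smooth fit of the log2 difference on exon GC content was subtracted, 0 of the 9 members were more than 2-fold apart. *Muc1* and *Muc15* then had nearly the same difference, 0.99 each, the furthest from 0 among the members. *Btn1a1* stood at 0.29 and *Plin2* at -0.34. *Cidea* and *Mfge8* changed sign, to 0.05 and 0.14, *Xdh* did so too, to 0.16, and *Fabp3* stood at -0.12. Of 9725 genes, 186 were more than 2-fold apart after the fit, 110 of them higher in replicate 2. Before it, 586 of 9845 were, 107 of them higher in replicate 2.

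**Figure D3:**
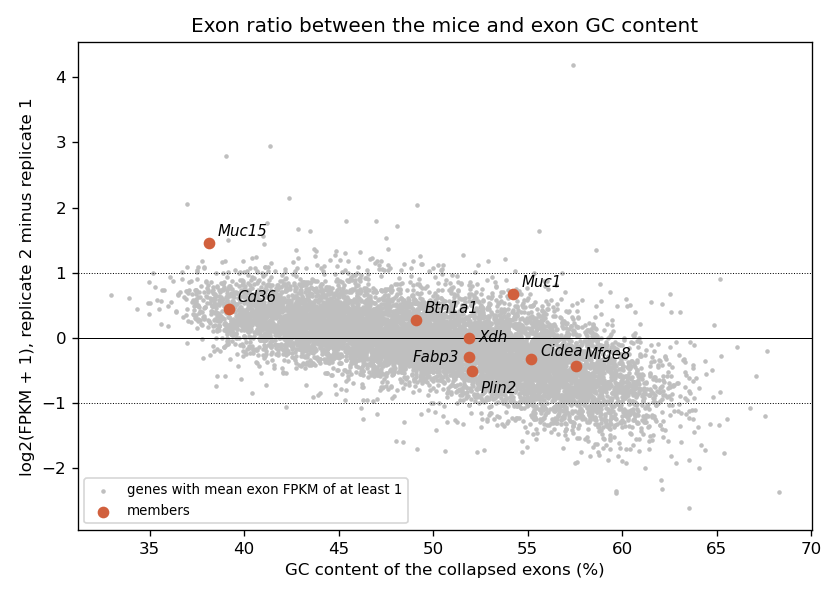
Difference of log2(exon FPKM + 1) between replicate 2 and replicate 1 against the GC content of the exons, for genes averaging 1 exon FPKM or more (grey) and the 9 members (orange), on the deposited scale. Dotted lines mark a 2-fold difference, *Muc15* lies above the upper one at 1.46, and *Muc1* lies at 0.67 among genes that are mostly below 0.

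Intron FPKM gave a second view of the same genes. *Fabp3* had the highest intron level of the group, 107.6 in replicate 1 and 111.2 in replicate 2, rank 7 of all genes. *Btn1a1* followed at 62.3 and 90.5 and *Xdh* at 43.2 and 64.1, ranks 10 and 12. These 3 genes were therefore among the 12 genes with the highest intron signal in the gland. *Cidea* introns were at 19.2 and 10.3, *Plin2* introns at 12.9 and 18.8, and *Mfge8* introns at 10.1 and 7.5. *Muc15* introns were at 5.0 and 12.0, *Cd36* introns at 5.0 in both mice, and *Muc1* introns at 1.7 and 3.5.

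The exon to intron ratio separated the genes into those with much and little intron signal for their exon level. The ratio was lowest for *Xdh*, 17.9 in replicate 1 and 12.0 in replicate 2, and for *Btn1a1*, 23.7 and 19.8, both below the median of 28.0 over 3020 genes averaging 10 exon FPKM or more and with intron signal in both mice. *Fabp3* (35.0 and 27.7) and *Plin2* (61.1 and 29.3) came next. The other members had far less intron signal for their exon level. The ratios of *Muc15* were 81.2 and 93.0, those of *Cidea* 97.1 and 144.1, those of *Cd36* 119.5 and 162.7, those of *Mfge8* 139.3 and 138.7, and those of *Muc1* 174.3 and 134.9. The median of the geometric means was 86.9 over the members, and 7 of 9 lay above the median of all genes. Among the 84 genes averaging 250 exon FPKM or more, however, the median was 164.3, above 9 of 9 members. With exons and introns scaled separately the median over the members was 13.8. That scaling changes the ratios of all genes in a mouse by the same factor, so 13.8 is not comparable with 28.0 or 164.3.

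**Figure D4:**
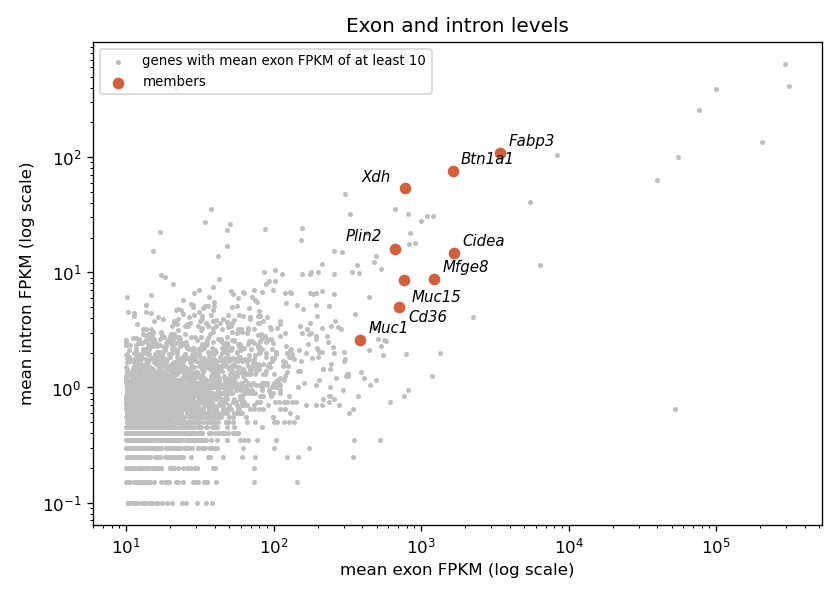
Mean intron FPKM against mean exon FPKM, both on log scales, for genes averaging 10 exon FPKM or more and with intron signal in both mice (grey) and the 9 members (orange). *Xdh*, *Btn1a1* and *Fabp3* lie at the upper edge, with mean intron levels of 53.7, 76.4 and 109.4 FPKM.

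The lengths of the introns turned these levels into different numbers of reads. The 61688 bp of *Xdh* introns held an estimated 26649 reads in replicate 1 and 19971 in replicate 2, which was 42.7% and 52.7% of the reads on the gene. For *Fabp3* the intron share was 20.2% and 24.3%, for *Cd36*, whose introns span 103343 bp, 18.0% and 13.9%, and for *Cidea* 16.9% and 12.1%. In these 4 genes more than 10% of the reads thus lay on introns in either mouse. The share was 9.15% and 17.3% for *Plin2*, 6.26% and 7.41% for *Btn1a1*, 5.26% and 4.62% for *Muc15*, and 4.26% and 4.28% for *Mfge8*. In *Muc1*, with 2083 bp of introns, it was 0.530% and 0.684%, from about 35 and 37 intron reads.

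Because the steps give approximate read numbers, the intron ratio between the mice could be given with an exact (Clopper-Pearson) 95% interval, which covers counting error only. *Muc15* introns were 2.40-fold higher in replicate 2 (2.18 to 2.65), an interval below the 2.75-fold of its exons. *Xdh*, *Plin2* and *Btn1a1* introns were 1.48-fold (1.46 to 1.51), 1.46-fold (1.35 to 1.58) and 1.45-fold (1.38 to 1.53) higher, so the introns of the bridging proteins differed by nearly the same factor, while their exons stood at 0.994, 0.700 and 1.21. *Cidea* introns stood at 0.536 (0.503 to 0.572), lower than its exon ratio of 0.796. *Mfge8* introns stood at 0.743 (0.669 to 0.824), which includes its exon ratio of 0.739. *Cd36* (1.00, 0.954 to 1.05) and *Fabp3* (1.03, 0.991 to 1.08) introns did not differ beyond counting error on this scale. *Muc1* introns, with few reads, stood at 2.09 (1.28 to 3.42).

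On the deposited scale, the sign of the difference was the same in exons and introns for 5 of the 8 members with a nonzero intron difference, compared with 63.4% of 3444 genes that averaged 0.5 intron FPKM and 1 exon FPKM or more and had nonzero differences in both. *Plin2*, *Xdh* and *Fabp3* were the exceptions, although *Xdh* exons and *Fabp3* introns were close to no difference. *Plin2* values lay on opposite sides, 788.1 against 551.5 in exons and 12.9 against 18.8 in introns, although with both mice at the same summed exon FPKM its ratios were 0.334 and 0.695, both below 1. A change of scale multiplies the exon and intron ratios alike, so the gap between them does not depend on it, while their side of 1 does. Which genes lay on opposite sides also depended on GC content. After fits on it, the log2 differences of *Plin2* stood at -0.34 in exons and 0.50 in introns, and those of *Cidea*, with a wider gap, at 0.05 and -0.89. *Fabp3* (-0.12 and 0.34), *Mfge8* (0.14 and -0.20) and *Cd36* (0.02 and -0.30) then lay on opposite sides too. The median log2 difference of introns was 0.54 over the members, compared with 0.00 over 4168 genes averaging 0.5 intron FPKM or more, with no exon filter.

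**Figure D5:**
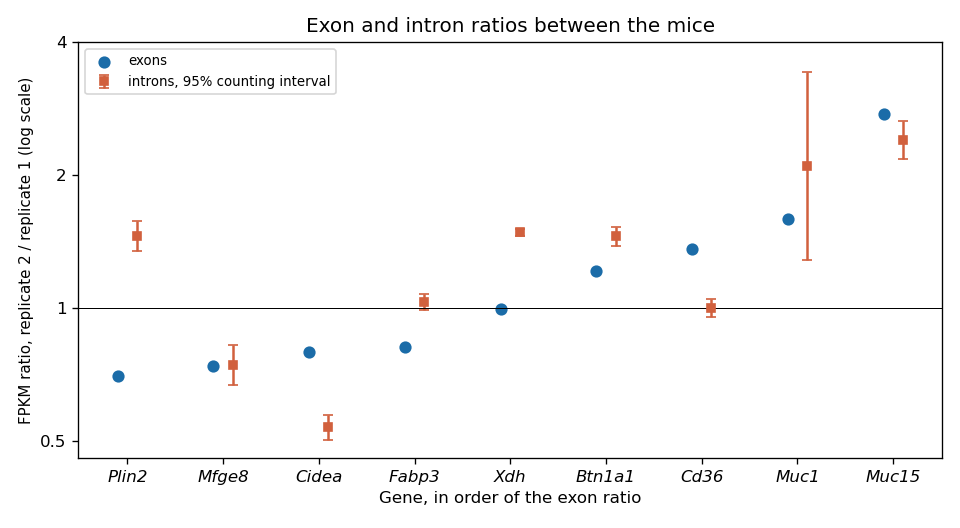
Ratio of FPKM in replicate 2 to replicate 1 for exons (blue circles) and introns (orange squares, bars are exact 95% counting intervals) of the 9 members, on a log scale and as deposited. *Muc15* has the highest ratios in both, 2.75 and 2.40, and *Plin2* lies on opposite sides of 1, at 0.700 and 1.46.

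The identity of the reads was open to question for a few members. The 402 bp coding sequence of *Fabp3* had a near-identical copy on chromosome 10, aligned over all 402 bp at 99.3% identity, and how reads that map to several places were counted is not given in the sources used here, so *Fabp3* exon values are uncertain. *Gapdh* and *Actg1*, named here after their values were seen, are used by nearly all cells and known for many copies in the genome, and were at 0.1 and 0.3 and at 0.4 and 0.2 exon FPKM, while *Actb* was at 502.1 and 404.8. A value near 0 for a relative or marker is therefore given as listed, not as absence of expression. The other 8 members had 0 copies with at least 95% identity over at least 50% of the coding sequence. *Muc15* lies within the opposite-strand gene *Ano3*, with 0.1 exon FPKM in replicate 1 and 0.3 in replicate 2. The end of *Fabp3* overlaps the opposite-strand gene *Zcchc17*, at 12.5 and 6.8. Noncoding genes or pseudogenes overlap *Btn1a1*, *Xdh* and *Cidea*. The libraries were stranded, but whether counting used the strand is not given in the sources used here.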

How the data were processed

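Total RNA-seq libraries of 2 WT_wTbrg4 mammary glands were used, and the ChIP-seq samples were not analysed here. The authors mapped reads to mm10 with STAR, counted them on collapsed exons and introns with HTSeq and made the deposited FPKM values with DESeq2, whose total is not stated. Of 20550 listed genes, 35 had no usable symbol. Lengths and GC content came from RefSeq on GRCm38, matched for 98.2% of symbols. Means and SD over 2 mice were computed with no test. Shares used all genes, exon to intron ratios genes averaging 10 exon FPKM or more, and log2 differences, with a pseudocount of 1 (introns 0.1), genes averaging 1 exon or 0.5 intron FPKM or more. GC content was removed by lowess over 30% of the genes. Reads per value were estimated as FPKM times length over the step. The authors took gene models from UCSC, so RefSeq lengths may differ from theirs, and reads, intron shares and intervals are approximate to that extent. The step search and the GC fit were tested on simulated data. Copies were sought with blastn 2.17.0.

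The genes named were the 9 members, their family relatives, lists of other globule membrane and lipid droplet genes, markers of secretory, luminal, myoepithelial, adipocyte, endothelial, macrophage and muscle cells, and the genes ranked next to each member. Members and lists were chosen by gene name, with earlier results of these data known. Alternatives covered pseudocount, filter, scaling, centring, GC content, the kind of mean and each replicate left out. The intron GC fit and the rescaling of log2 differences were added after the data were examined. Software was Python 3.11.15, statsmodels 0.14.6 for lowess, scipy 1.17.1 for intervals, numpy 2.4.6, matplotlib 3.10.9 and pandas 2.3.3.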

Additional observations from a re-analysis of the deposited data

How the results depend on the processing

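With 2 mice of 1 genotype no result has a test, and few reads stand behind the introns of *Muc1* and relatives listed near 0. Left out in turn, the replicates gave a share of the summed exon FPKM of 0.622% to 1.33% and a median exon to intron ratio of 81.2 to 93.0. Without the 10 highest genes the share was 6.55%, by construction of the sum, compared with 0.978%. The median log2 difference of the members, -0.01, became 0.14 after GC correction and, in alternatives chosen after seeing the data, -0.15 without *Muc15* and -1.08 with both mice rescaled to the same sum. The count of members more than 2-fold apart, 1, became 0 after GC correction, 0 when that fit used genes with a mean of at least 10 (chosen after seeing the data), and 5 after rescaling to the same sum (also chosen afterwards). The count of all genes, 586 of 9845, became 1101 at pseudocount 0.1 and 232 of 3112 with a mean of at least 10. It became 186 of 9725 after GC correction and, like the count of members, rose after rescaling, to 4193. The share of these genes higher in replicate 2 was 18.3%, and 26.2% after centring, 59.1% after GC correction and 0.143% after rescaling. The exon to intron ratio, 86.9, became 13.8 with exons and introns scaled separately, which changes the ratios of all genes in a mouse by the same factor. The cause of the differences between the mice was not tested, and the GC fit and the rescaling only describe these 2 libraries. Of 63 alternatives for single members, 29 moved the value by less than the spread between the mice, or 0.1 for log2 values, and 34 by more. Omitted replicates and geometric means were left aside, since with 2 mice they cannot move a level by more than 1 SD. Of the ranks also left aside, those of *Cidea* (14 to 15) and *Mfge8* (17 to 21) moved by more than the spread without replicate 1. The sign changed for 4 of 27 log2 differences, apart from rescaling, which moves all genes one way and turned 3 of 9.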

Other observations

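Genes of lipid droplet growth and breakdown were low beside the membrane genes. Of 12 genes, 11 were at 1 FPKM or more in both mice, with sums of 483.5 in replicate 1 and 476.1 in replicate 2, and 0 were more than 2-fold apart, compared with 5.95% of all genes averaging 1 exon FPKM or more. *Abhd5*, which activates the triglyceride lipase ATGL, led at 134.6 and 154.2, while the lipase gene itself, *Pnpla2*, was at 32.3 and 38.5. *Lpin1*, a phosphatidate phosphatase, was at 102.6 and 124.5, and the acyltransferase gene *Gpat4* at 107.0 and 68.3. The genes for the last step of triglyceride synthesis, *Dgat1* and *Dgat2*, were at 18.7 and 15.6 and at 10.1 and 10.4. *Bscl2* and *Fitm2*, which act where droplets form, were at 18.5 and 14.3 and at 16.1 and 16.9. The lipase genes *Lipe* and *Mgll* were at 15.8 and 11.6 and at 13.7 and 10.7, and *Hsd17b11* at 14.1 and 11.1.

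*Gpam* was listed at 0 in exons and introns of both mice, as was the smooth muscle actin gene *Acta2*. Both lie on the minus strand of chromosome 19, in a run of 137 consecutive annotated minus-strand genes, of 319 on that strand, that were all listed at 0 in exons and introns of both mice. The run began with *2610016A17Rik* and ended with *Cacul1*. On chromosome X, 68 consecutive genes were at 0 on the plus strand and 68 on the minus strand, and the next longest run on any chromosome was 39. None of the 9 membrane genes lies in such a run. A listed 0 for *Gpam* or *Acta2* therefore says nothing about their expression.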
